A study of Homo sapiens with 24 samples.

Results

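The cytosolic ribosomal protein genes encode the protein part of the ribosome that translates nuclear-encoded mRNAs. They were chosen by symbol: protein-coding genes whose symbol starts with RPL or RPS and a digit, together with RPLP0, RPLP1, RPLP2 and RPSA, without the RPS6K kinases, RPS27L, the RPS4Y genes and symbols ending in L or L1. The rule found 81 of the 58676 gene IDs in the count table. Of these, RPS19BP1 encodes a binding protein of RPS19, and 3 are readthrough loci (RPL17-C18orf32, RPL36A-HNRNPH2 and RPS10-NUDT3) with a count of 0 in every library. The other 77 genes encode structural proteins of the ribosome, 31 of the small (40S) subunit and 46 of the large (60S) subunit. They lie on 21 chromosomes, with 12 on chromosome 19, and all 77 passed the filter on low counts.

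The comparison covered 4 lines: U-2932, OCI-LY19, OCI-LY3 and SU-DHL-10, each after 8 h of TAK-981 and at 0 h, with 2 RNA-seq libraries per line and time point and 16 in all. The lines are established human B cell lines from diffuse large B cell lymphoma, labelled as wild type. TAK-981 inhibits the enzyme that activates SUMO, a small protein that is attached to other proteins and changes their activity, partners or stability. The dose was not stated, no vehicle-treated library at 8 h was part of the comparison, and no label ties the 2 libraries of a group to separate cultures, so p-values measure only the spread between libraries, which may be technical. A change between 0 h and 8 h therefore holds the drug and 8 h of culture together, and these cannot be told apart. SU-DHL-10 is named as the labels give it; the series' own text gives another line name.

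Ribosomal protein mRNAs are among the most abundant mRNAs of growing cells. Most start with a C followed by a run of pyrimidines, the 5′ terminal oligopyrimidine (5′ TOP) tract, through which the mTORC1 kinase pathway and the RNA-binding protein LARP1 control their translation and stability as a group. Ribosomal proteins made in excess of ribosomal RNA are degraded, but RPL5 and RPL11, bound to 5S ribosomal RNA, can instead inhibit MDM2 and so stabilise p53.

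Libraries held between 16770677 and 24694466 counts assigned to genes, and the summed counts of the 77 genes were between 1265012 and 2052932 per library. Of the 77 genes, 6 had a mean count under 1000 (RPS10, RPL17, RPL36A, RPL26 and RPS15A among them), and their values are less precise than those of the rest; 3 of them share their locus with a readthrough gene. Ribosomal protein pseudogenes, near-copies of these genes, took between 1.16% and 1.51% of the ribosomal protein counts, and how reads that match both were assigned is not stated. All 7 B cell markers were present in every group, while the T and NK cell markers summed to at most 5.03 CPM (counts scaled to a common library size) and the monocyte and macrophage markers to at most 2.75 CPM. The epithelium, stroma and endothelium markers summed to between 74.8 and 163 CPM in OCI-LY3 and OCI-LY19, nearly all of it COL1A1, and these 2 lines also resembled each other most at 0 h, with a Pearson correlation of 0.98 over 17327 genes against 0.87 to 0.91 for other pairs of lines. The identity of these 2 lines was not tested, and comparisons between lines take both as separate lines, as labelled. External RNA spike-ins took between 0.0435% and 0.620% of counts and serve below as a second scale. Their share split by line, with at most 0.0823% in the libraries of SU-DHL-10 and OCI-LY3 and at least 0.382% in those of OCI-LY19 and U-2932.

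The starts of the transcripts show what this family shares outside the symbol rule. RefSeq promoter sequences (GRCh38.p14) matched 62 of the 77 genes. The following 30-base windows run from 10 bases before the annotated transcription start to base 20 of the transcript, with the pyrimidine tract that begins at position 1 in capitals. The first 6 belong to genes with large falls in U-2932, the next 4 to genes with small falls there, and the last 2 have no tract and stand at opposite ends of the range.
RPLP2 (chr11:809957-809986, plus strand): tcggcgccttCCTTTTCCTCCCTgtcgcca
RPS21 (chr20:62387093-62387122, plus strand): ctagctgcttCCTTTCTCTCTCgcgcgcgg
RPL38 (chr17:74203668-74203697, plus strand): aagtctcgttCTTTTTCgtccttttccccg
RPL35A (chr3:197950180-197950209, plus strand): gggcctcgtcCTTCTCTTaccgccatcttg
RPL35 (chr9:124861938-124861967, minus strand): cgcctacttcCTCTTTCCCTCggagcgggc
RPLP1 (chr15:69452808-69452837, plus strand): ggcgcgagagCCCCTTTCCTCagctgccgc
RPSA (chr3:39406710-39406739, plus strand): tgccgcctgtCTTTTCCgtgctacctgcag
RPS6 (chr9:19380217-19380246, minus strand): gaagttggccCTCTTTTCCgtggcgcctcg
RPLP0 (chr12:120201092-120201121, minus strand): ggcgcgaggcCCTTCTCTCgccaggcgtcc
RPS23 (chr5:82278335-82278364, minus strand): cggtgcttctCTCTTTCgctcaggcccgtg
RPS29 (chr14:49598691-49598720, minus strand): agcgcgcagctggcagcggtggttgtttct
RPL6 (chr12:112411423-112411452, minus strand): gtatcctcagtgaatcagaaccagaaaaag

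A C at position 1 followed by at least 4 more pyrimidines was present in 42 of the 62 ribosomal protein genes (67.7%), against 713 of 15282 protein-coding genes (4.67%). In a list of other known 5′ TOP mRNAs (translation elongation factors, PABPC1, TPT1 and others), 10 of 12 had it, and in a list of ribosome assembly factors 3 of 33 did. The annotated start is a single base, so a gene without the tract in this window may start elsewhere in these cells. The letters CCGGAAG, on either strand, occurred within 250 bases before to 50 bases after the start in 21 of the 62 genes (33.9%), against 14.4% of protein-coding genes. AAGATGGC occurred in 9.68% against 3.98%, TATAAA in 8.06% against 9.61%, and CACGTG in 4.84% against 8.89%, also on either strand and with overlaps between motifs not removed. CCGGAAG was also present in 14 of the 33 assembly factors and 3 of the 12 other 5′ TOP mRNAs. AAGATGGC was present in 3 of the 33 and 4 of the 12. Neither motif was thus particular to the ribosomal protein genes. RPLP2, whose change differed most between lines by its p-value, holds CCGGAAG on the opposite strand, shown in capitals in the 250 bases before its start (chr11:809717-809966, plus strand).
RPLP2 promoter: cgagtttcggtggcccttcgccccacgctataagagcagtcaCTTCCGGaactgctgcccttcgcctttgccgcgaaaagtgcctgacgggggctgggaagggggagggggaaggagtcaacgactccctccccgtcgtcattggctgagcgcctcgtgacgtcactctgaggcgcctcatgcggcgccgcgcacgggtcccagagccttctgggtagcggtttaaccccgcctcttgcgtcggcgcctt

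The 4 lines differed in the share of gene counts from the ribosomal protein genes at 0 h and in how that share stood at 8 h. PCR duplicates had been removed from these counts, and what that did to the share was not tested. In U-2932, the 77 genes took 6.94% and 7.03% of gene counts in the 8 h libraries, against 11.9% and 11.1% in the 0 h libraries. The mean was 6.98% ± 0.0645 at 8 h and 11.5% ± 0.592 at 0 h (SD, n = 2 each), a ratio of 0.608. OCI-LY19 stood the other way, with 7.77% ± 0.0799 at 8 h and 7.21% ± 0.313 at 0 h (SD, n = 2 each). The share in SU-DHL-10 was 6.64% ± 0.0231 at 8 h and 7.16% ± 0.248 at 0 h, and in OCI-LY3 it was 7.85% ± 0.222 at 8 h and 8.34% ± 0.149 at 0 h (SD, n = 2 each). At 8 h all 4 lines thus stood between 6.64% and 7.85%, whereas at 0 h U-2932 stood well above the other lines. Both subunits moved alike in U-2932: the 40S genes took 2.81% ± 0.0320 at 8 h and 4.57% ± 0.217 at 0 h, and the 60S genes 4.17% ± 0.0325 at 8 h and 6.92% ± 0.375 at 0 h (SD, n = 2 each).

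**Figure D1:**
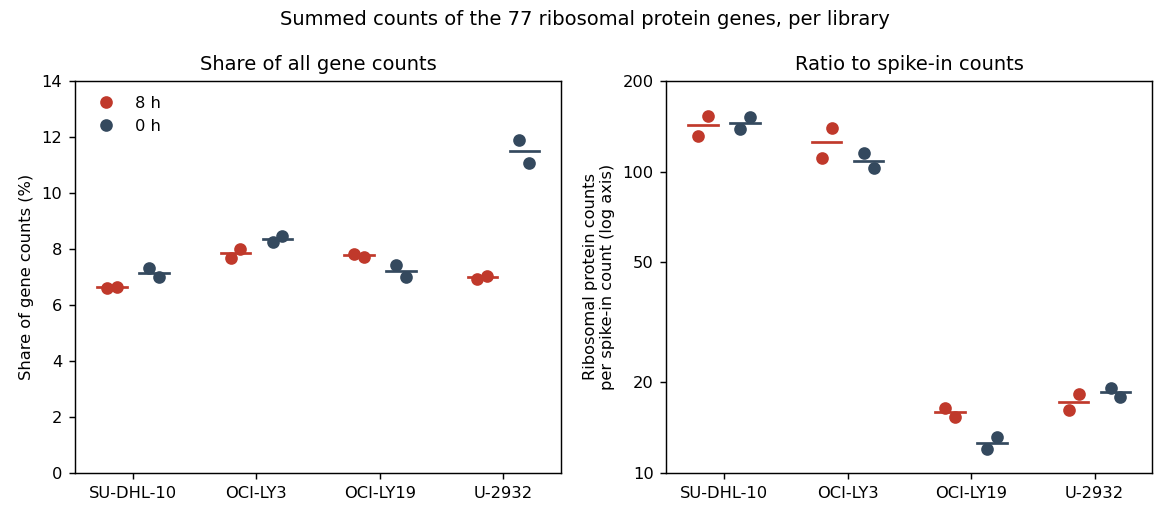
The left panel plots the percent of gene counts from the 77 ribosomal protein genes and the right panel their summed counts per spike-in count on a log axis, with 1 point per library, bars at the mean of 2 libraries and 8 h left of 0 h in each line. In U-2932 the share at 8 h (mean 6.98%) stood far below that at 0 h (mean 11.5%), while the counts per spike-in count (means 17.3 and 18.5) lay close together.

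Set against the spike-ins, the picture in U-2932 was different. The 77 genes gave 17.3 ± 1.51 counts per spike-in count at 8 h and 18.5 ± 0.820 at 0 h (SD, n = 2 each), while the spike-ins' own share of counts was 0.404% ± 0.0315 at 8 h and 0.617% ± 0.00443 at 0 h. On this scale the median tested gene in U-2932 stood 0.70 log2 units higher at 8 h, and the median ribosomal protein gene 0.12 lower. The distance between the family and the median gene was 0.82 log2 units by spike-ins and 0.85 by TMM (trimmed mean of M-values, the scaling used for the fold changes below, which assumes that most genes do not change). The counts per spike-in count were 15.9 ± 0.708 at 8 h and 12.6 ± 0.766 at 0 h for OCI-LY19, whereas OCI-LY3 had 125 ± 19.98 at 8 h and 109 ± 8.90 at 0 h and SU-DHL-10 had 142 ± 14.9 at 8 h and 145 ± 9.70 at 0 h (SD, n = 2 each). The dosing of the spike-ins was not stated, so whether the U-2932 cells held less ribosomal protein mRNA or more of other mRNA at 8 h cannot be told apart, and fold changes are read below relative to the median gene.

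In U-2932 nearly the whole family fell. In edgeR's quasi-likelihood test at a Benjamini-Hochberg adjusted p of 0.05, 75 of the 77 genes fell and none rose (the same numbers at an unadjusted p of 0.05 and in DESeq2), against 25.0% of all 17327 tested genes called lower and 25.9% called higher. The median log2 fold change of the 77 genes was −0.85, against 0 over all tested genes and 0.04 over 2230 other genes with at least 100 CPM on average. All of the falls lay between −0.39 and −1.95. For 75 of the 77 genes, both 8 h libraries lay below both 0 h libraries, which held for 36.3% of all tested genes. The exceptions, RPS10 with a log2 fold change of −0.10 and RPL36A with 0.07, are 2 of the genes with few counts. Under spike-in scaling, where the median tested gene stood 0.70 higher, 17 of the 77 still fell and 1 rose (RPL36A), and 47 of the 77 lay below 0. The share of all tested genes called on that scale is not given, so these counts have no background beside them.

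The falls were uneven within the family. RPL30, a 60S protein, had 50.5 and 53.6 CPM in the 8 h libraries of U-2932, against 217 and 186 CPM in the 0 h libraries, a log2 fold change of −1.95 ± 0.10 (SE; adjusted p = 3.64e-17). RPL23A, which sits at the exit of the nascent chain tunnel, had 81.3 and 84.8 CPM at 8 h, against 321 and 280 CPM at 0 h (−1.86 ± 0.10, SE; adjusted p = 5.57e-17). RPS29, a small zinc-binding 40S protein, had 157 and 153 CPM at 8 h, against 605 and 507 CPM at 0 h (−1.84 ± 0.13, SE; adjusted p = 6.22e-14). In each of the 3 genes the 8 h libraries lay far below the 0 h libraries without overlap. These falls, and those of RPLP2 and RPS21, also passed the test under spike-in scaling, with log2 fold changes of −1.22 for RPL30, −1.13 for RPL23A, −1.12 for RPS29, −0.81 for RPLP2 and −0.71 for RPS21. At the other end RPL7 (−0.42 ± 0.06), RPL6 (−0.41 ± 0.06) and RPL26 (−0.39 ± 0.12, SE) had the smallest of the falls that passed, and all 3 lay above 0 by spike-ins (0.30, 0.32 and 0.34). On that scale the median tested gene stood at 0.70, above all 3.

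**Figure D2:**
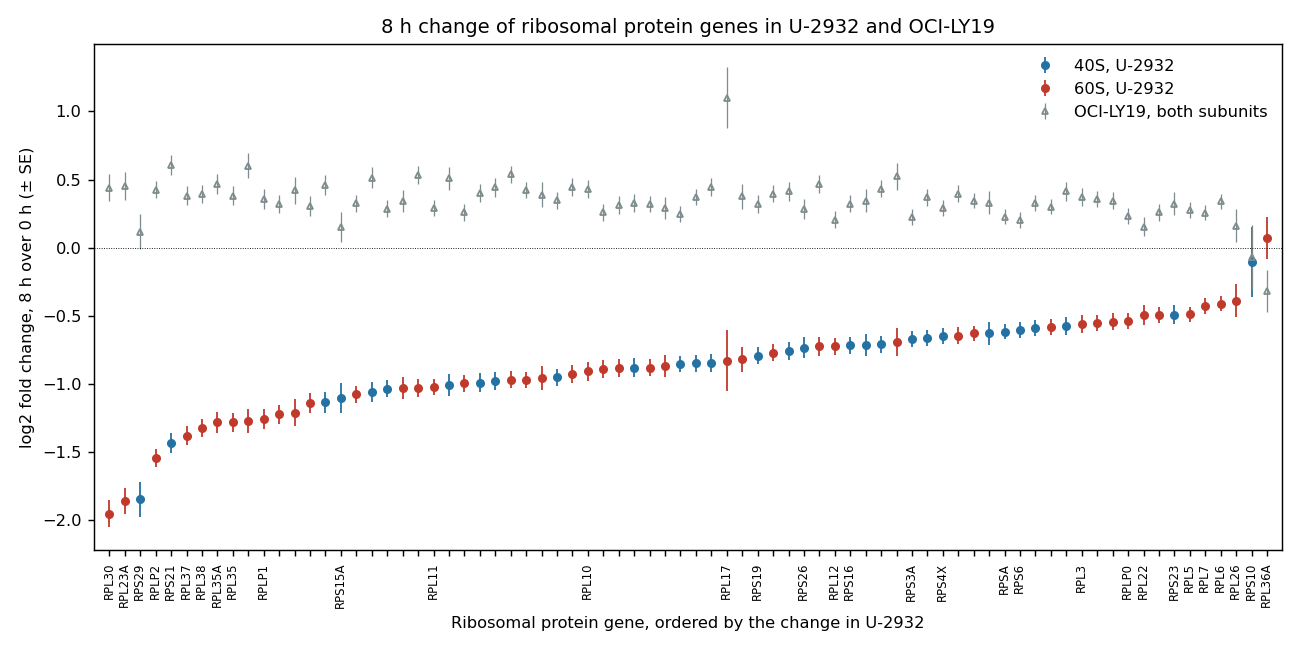
Log2 fold change (8 h over 0 h, ± SE, TMM scaling) of the ribosomal protein genes, 1 of which is not drawn, ordered by the value in U-2932, with filled circles for U-2932 coloured by subunit and open triangles for OCI-LY19. The U-2932 values run from −1.95 (RPL30) to 0.07 (RPL36A), and the OCI-LY19 values drawn lie above 0 except those of RPS10 and RPL36A; names are given for the genes described in the text.

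By role, the 3 proteins of the P stalk, which recruits translation factors to the 60S subunit, moved in the same direction but by different amounts in U-2932. RPLP2 had 629 and 671 CPM at 8 h, against 2001 and 1781 CPM at 0 h (−1.54 ± 0.06, SE; adjusted p = 3.21e-19). RPLP1 fell by 1.26 ± 0.08 on the log2 scale, with 1136 and 1141 CPM at 8 h and 2869 and 2565 CPM at 0 h. RPLP0, the stalk's base, fell by 0.54 ± 0.06, with 2890 and 2986 CPM at 8 h and 4452 and 4074 CPM at 0 h. On the spike-in scale RPLP0 stood at 0.19 and was not called, while the median tested gene stood at 0.70. RPLP0 thus lay below the median gene on both scales. RPL5, RPL3, RPS6, RPSA and RPL22 likewise fell under TMM and lay above 0, but below the median tested gene, by spike-ins. With the dosing of the spike-ins unknown, whether the cells held less of these mRNAs cannot be told.

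The 5S particle proteins and other MDM2 binders fell as well in U-2932. RPL5 had 1187 and 1214 CPM at 8 h, against 1724 and 1647 CPM at 0 h (−0.49 ± 0.06, SE; adjusted p = 9.15e-09). RPL11, its partner on 5S RNA, had 934 and 956 CPM at 8 h, against 2008 and 1823 CPM at 0 h (−1.02 ± 0.06, SE; adjusted p = 5.20e-16). The estimate for RPL11 was the larger, a difference between genes that was not tested. All 7 other listed ribosomal proteins that bind MDM2 fell, with log2 fold changes from −1.01 to −0.39. Nearly the whole family fell in this line, so this count does not set the MDM2 binders apart. Among the 20 listed genes mutated in Diamond-Blackfan anaemia, an inherited failure of red cell production, 19 fell in U-2932 with a median of −0.80 over the 20, close to that of the family. Of these, RPS19 fell by 0.79 ± 0.06 and RPS26 by 0.73 ± 0.08 on the log2 scale (SE).

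Other members with defined roles fell too in U-2932. RPS6, the 40S protein phosphorylated by S6 kinases, had 1976 and 1970 CPM at 8 h, against 3094 and 2902 CPM at 0 h (−0.60 ± 0.06, SE; adjusted p = 1.81e-10). RPSA, known also as the laminin receptor, fell by 0.61 ± 0.06, and RPL3, near the peptidyl transferase centre, by 0.56 ± 0.07. RPL10, which joins the 60S subunit late in its assembly, fell by 0.91 ± 0.07, and RPL22, an RNA-binding 60S protein, by 0.49 ± 0.07 (SE).

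In OCI-LY19 the family rose. In the same test, 71 of the 77 genes rose and none fell (72 rose and none fell at an unadjusted p of 0.05), against 21.6% of all tested genes called higher and 17.8% called lower. For 74 of the 77, both 8 h libraries lay above both 0 h libraries, which held for 34.3% of all tested genes. The median log2 fold change was 0.35, against 0 over all tested genes, and 0.22 over the 2230 other genes with at least 100 CPM, of which 1251 rose. Abundant genes in general thus stood higher at 8 h in this line, and the members' shift beyond that of other abundant genes was not tested. Mitochondrial ribosomal RNA took 0.877% ± 0.00983 of counts at 8 h and 1.44% ± 0.179 at 0 h (SD, n = 2 each), and mitochondrial mRNA took 3.44% ± 0.202 at 8 h and 5.23% ± 1.40 at 0 h, with 4.24% and 6.22% in the 0 h libraries. These 0 h libraries also differed most from each other of any group (chi-square per degree of freedom of 13.5, against 2.73 to 11.5 in the other groups). Over non-mitochondrial counts the family's share was 8.12% ± 0.0655 at 8 h and 7.73% ± 0.205 at 0 h (SD, n = 2 each), a ratio of 1.05, against 1.08 over all gene counts. RPL17 had 7.0 and 7.7 CPM at 8 h, against 3.58 and 3.26 CPM at 0 h, the highest fold change of the family in OCI-LY19 (1.10 ± 0.22, SE; adjusted p = 0.000141) but from few counts. RPS21 had 698 and 690 CPM at 8 h, against 494 and 417 CPM at 0 h (0.61 ± 0.07, SE; adjusted p = 1.85e-08). RPLP0 had 2794 and 2740 CPM at 8 h, against 2423 and 2286 CPM at 0 h (0.23 ± 0.06, SE; adjusted p = 0.00224), but stood at −0.0058 by total counts. The smallest of the called rises were those of RPL12 and RPS6, both 0.20 ± 0.06, and RPS3A (0.23 ± 0.06, SE), all of which lay below 0 by total counts. The 6 genes that did not pass were RPL22, RPL26, RPL36A, RPS10, RPS15A and RPS29, and RPS29, among the 3 lowest in U-2932, had 186 and 217 CPM at 8 h and 154 and 217 CPM at 0 h in OCI-LY19. Scaling by total counts, under which the median tested gene stood 0.20 lower at 8 h, gave 26 that rose and 1 that fell (RPL36A). Scaling by spike-ins gave 29 that rose. The shares of all tested genes called under these scalings are not given.

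In SU-DHL-10 the changes were small and downward. All 77 log2 fold changes lay below 0, with a median of −0.17, and 24 genes fell in the same test, against 6.27% of all tested genes called lower and 6.30% called higher. The median over the 2230 other abundant genes was −0.08. RPLP1 had 932 and 991 CPM at 8 h, against 1264 and 1198 CPM at 0 h (−0.36 ± 0.07, SE; adjusted p = 0.00115). RPS23, a 40S protein of the decoding centre, had 58.8 and 59.2 CPM at 8 h, against 72.9 and 72.5 CPM at 0 h (−0.30 ± 0.08, SE; adjusted p = 0.00614). RPS29 had 146 and 160 CPM at 8 h, against 262 and 166 CPM at 0 h (−0.48 ± 0.13, SE; adjusted p = 0.00935), and its 0 h libraries lay far apart, with replicate 2 close to the 8 h libraries. The smallest called falls were those of RPL7 (−0.19 ± 0.06), RPL6 (−0.19 ± 0.06) and RPS4X (−0.17 ± 0.06, SE). The number of calls in SU-DHL-10 rests on single libraries: it was 4 without 8 h replicate 1 and 4 without 8 h replicate 2, 8 without 0 h replicate 1, 31 without 0 h replicate 2 and 37 without 1 or the other 0 h library of OCI-LY19, and none fell under spike-in scaling.

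In OCI-LY3 the family changed little. In the same test 4 genes fell and none rose (2 rose and 11 fell at an unadjusted p of 0.05), against 12.5% of all tested genes called lower and 13.0% called higher, and the median log2 fold change was −0.07. The 4 were RPS23, with 48.0 and 41.6 CPM at 8 h, against 55.1 and 60.5 CPM at 0 h (−0.37 ± 0.08, SE; adjusted p = 0.000585), RPS3A (−0.25 ± 0.06), RPL38 (−0.19 ± 0.06) and RPL37 (−0.18 ± 0.07, SE), of which RPS3A, RPL38 and RPL37 lay above 0 by spike-ins. These calls rest on single libraries: 2 genes fell without 8 h replicate 2 or without 0 h replicate 2 of OCI-LY3, 7 without 0 h replicate 1 of SU-DHL-10 and 9 without 1 or the other 0 h library of OCI-LY19. Without 8 h replicate 2 of OCI-LY3, RPL38 stood at −0.11 (adjusted p = 0.437) and RPS23 at −0.27 (adjusted p = 0.0571), and without 0 h replicate 2 RPS3A stood at −0.19 (adjusted p = 0.0609). RPL37 missed the threshold without any single library of OCI-LY3 or 8 h library of SU-DHL-10 (adjusted p from 0.0545 to 0.289). By spike-ins none fell, 2 rose (RPL17 among them) and the median was 0.19, where the median tested gene also stood 0.20 higher.

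**Figure D3:**
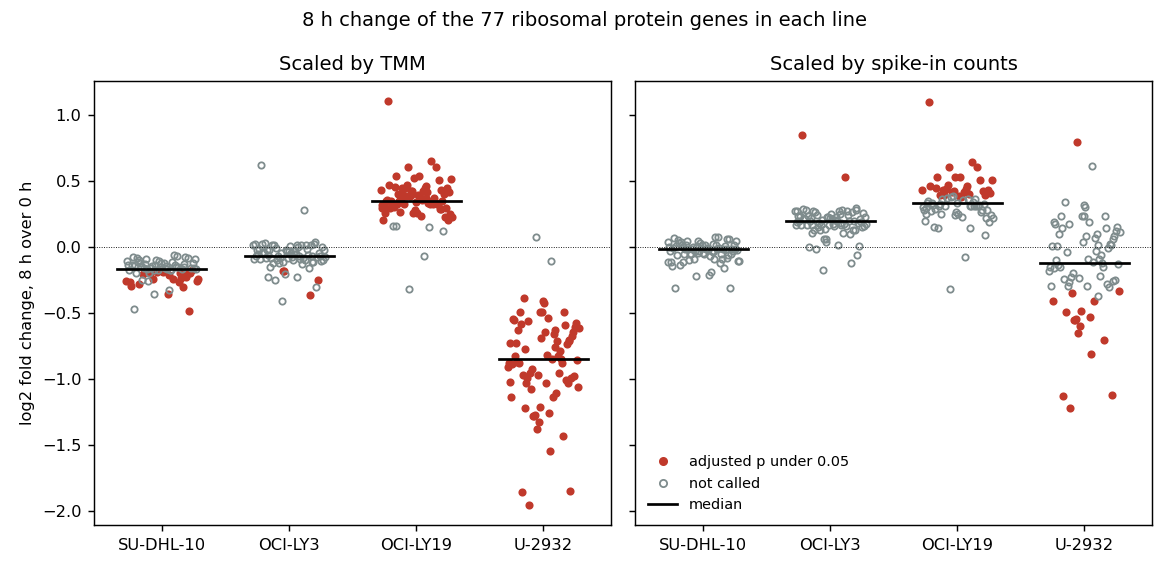
Log2 fold change (8 h over 0 h) of the 77 genes in each line, scaled by TMM on the left and by spike-in counts on the right, with filled points for an adjusted p under 0.05, open points for the rest and bars at the median. With TMM the median was −0.85 in U-2932, 0.35 in OCI-LY19, −0.07 in OCI-LY3 and −0.17 in SU-DHL-10, and with spike-ins −0.12, 0.34, 0.19 and −0.02 in the same order of lines.

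The change differed between lines for almost every member. In edgeR's quasi-likelihood test of the difference of the 8 h change among the 4 lines, 75 of the 77 genes passed, against 53.5% of all tested genes, and the exceptions were RPL36A and RPS10. The 5 smallest p-values belonged to RPLP2, RPS21, RPL37, RPL38 and RPL35, with adjusted p-values from 9.75e-18 to 4.90e-15. For RPLP2 the log2 fold changes were −1.54 in U-2932, 0.43 in OCI-LY19, −0.05 in OCI-LY3 and −0.21 in SU-DHL-10. In OCI-LY19 the change lay above the mean change of the other lines for 75 genes (17.8% of tested genes were called higher in this comparison). In U-2932 it lay below that mean for 75 (20.1% called lower). In OCI-LY3 it lay above for 18 (6.35% called higher), though no member was called higher within that line. In SU-DHL-10 it lay above for 3 and below for 1 (8.25% called higher and 12.1% lower), though all 77 fold changes within that line lay below 0. By spike-ins, 31 of the 77 genes passed the test of the difference, and the share of all tested genes that passed on that scale is not given. All 71 genes that rose in OCI-LY19 fell in U-2932, and all 24 that fell in SU-DHL-10 fell in U-2932; these counts follow from the near-complete calls in U-2932. Over the 77 genes the fold changes in OCI-LY19 and U-2932 correlated with a Pearson r of −0.39 and a Spearman rho of −0.43, as a description over genes that share libraries and scaling.

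**Figure D4:**
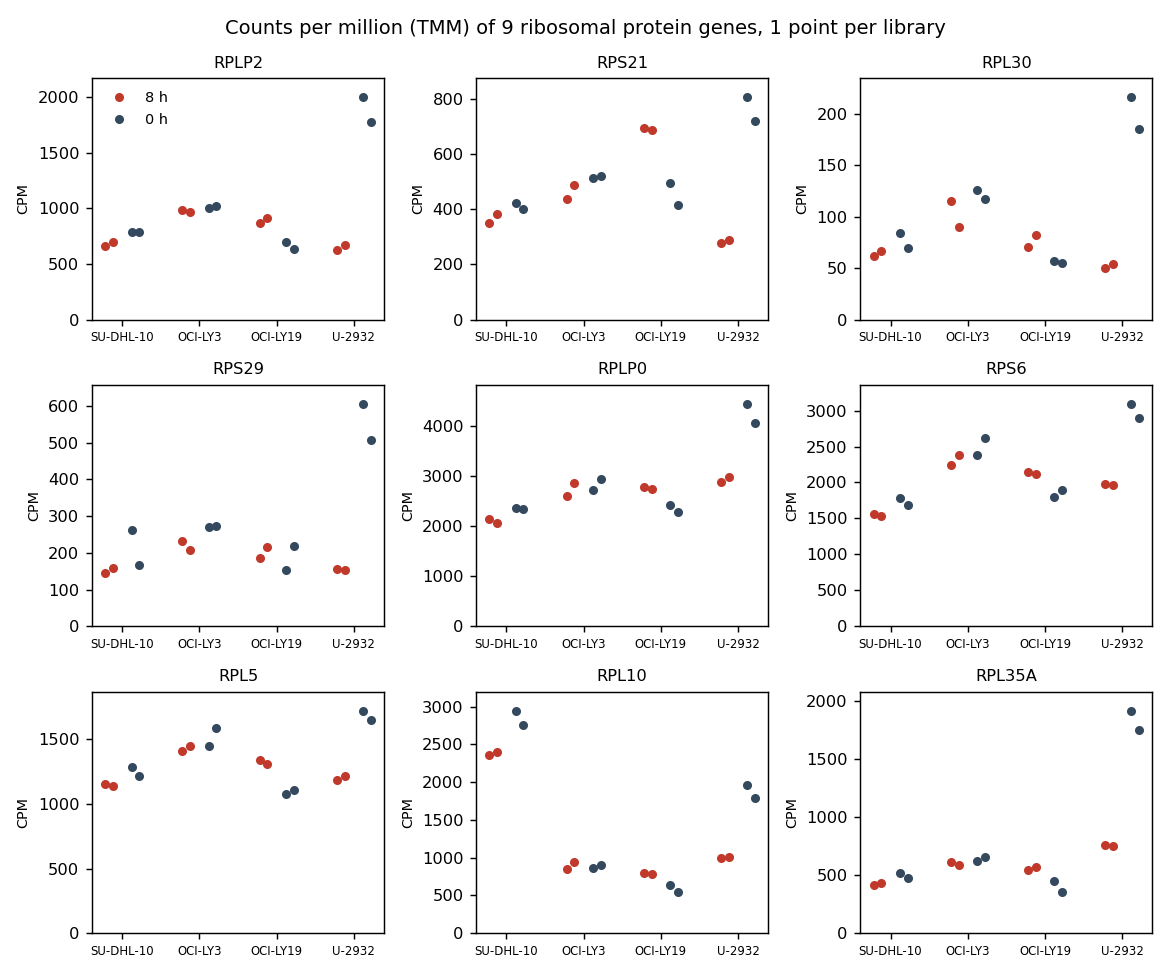
CPM (TMM-scaled, from 0) of 9 ribosomal protein genes, with 1 point per library and 8 h left of 0 h in each line. In U-2932 every 8 h point lies below both 0 h points for each of the 9 genes, from RPL30 (50.5 and 53.6 CPM at 8 h, 217 and 186 CPM at 0 h) to RPL5 (1187 and 1214 CPM at 8 h, 1724 and 1647 CPM at 0 h).

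No member passed the test for a change shared by the 4 lines. In edgeR's quasi-likelihood test with terms for line and time, whose spread includes the variation of the response between lines, none of the 77 genes rose or fell, against 18.1% of tested genes called in either direction and 8.09% called lower. At an unadjusted p of 0.05, 6 fell and none rose, and DESeq2 called 1 (RPS29) lower. RPS29 came closest, with a log2 fold change of −0.62 ± 0.21 (SE; adjusted p = 0.0524). Without OCI-LY19, 32 of the 77 genes fell in this fit, and the average of the 4 lines' own changes, which leaves out the variation between lines, called 70 lower (19.6% of tested genes). With all 4 lines in the fit, 19 fell without a filter on low counts and 6 by total counts, so the count of 0 depends on the lines, the filter and the scaling. The shares of all tested genes called without OCI-LY19, without the filter, by total counts and by DESeq2 are not given. Those counts thus have no background beside them.

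The members were also compared with the summed ribosomal protein counts, a scale on which a shift of the whole family cancels and which no scaling between libraries touches. In U-2932, 24 members rose and 24 fell against this pool, beside 60.1% of all tested genes called higher and 4.20% called lower on that scale. RPL30 (−1.12 ± 0.11), RPL23A (−1.03 ± 0.11), RPS29 (−1.01 ± 0.13), RPLP2 (−0.71 ± 0.07) and RPS21 (−0.60 ± 0.07) lost share within the pool. RPL36A (0.89 ± 0.17), RPS10 (0.72 ± 0.26), RPL26 (0.43 ± 0.14), RPL6 (0.42 ± 0.06) and RPL7 (0.40 ± 0.06, log2 and SE throughout) gained share. Of these, RPL36A, RPS10 and RPL26 are genes with few counts, as is RPL17. RPL36A, RPS10 and RPL17 also share their locus with a readthrough gene, and how reads that match several genes were counted was not stated. In OCI-LY19, 7 rose and 1 fell against the pool, with 7.45% and 36.4% of tested genes called higher and lower; RPL17 was highest (0.76 ± 0.24, SE; adjusted p = 0.00915) and RPL36A was the gene that fell (−0.66 ± 0.17, SE; adjusted p = 0.00197). These counts rest on single libraries of OCI-LY19: 18 rose and 7 fell without 0 h replicate 1, none rose and 4 fell without 0 h replicate 2, 3 rose without 8 h replicate 1 and 1 rose without 8 h replicate 2. Without a 0 h library of SU-DHL-10 4 fell, and without a 0 h library of U-2932 3 fell. The rise of RPL17 was lost without 0 h replicate 2 (adjusted p = 0.0625) and without 8 h replicate 2 (adjusted p = 0.0683). In OCI-LY3, 1 rose (RPL17) and 2 fell (RPS23 and RPS3A), against 13.9% and 9.01% of tested genes, and none fell without 8 h replicate 2 of OCI-LY3, 1 fell without a 0 h library of OCI-LY3 or an 8 h library of SU-DHL-10 or OCI-LY19, 2 rose without 0 h replicate 1 of OCI-LY3, and none rose without its 8 h replicate 1 or 0 h replicate 2, or without an 8 h library of OCI-LY19 or U-2932. In SU-DHL-10 none was called by edgeR (none rose and 2 fell at an unadjusted p of 0.05), against 14.7% of tested genes called higher and 1.47% lower. Across lines RPS29 was the member called, with a log2 change of −0.45 ± 0.13 against the pool (SE; adjusted p = 0.0431), where 1.14% of tested genes were called lower. This call held without 0 h replicate 2 of SU-DHL-10, 8 h replicate 2 of OCI-LY19 or 0 h replicate 1 of OCI-LY19, and was lost without each of the other libraries (adjusted p from 0.0531 to 0.101). A replicate block in the fit also removed it.

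The levels of the ribosomal protein mRNAs differed between lines before treatment, while their shares within the pool at 0 h were not tested. At 0 h, 76 of the 77 genes differed among the 4 lines in edgeR's quasi-likelihood test, with RPS10 the exception, against 87.3% of all tested genes. Against the mean of the other lines at 0 h, 68 genes stood higher and 4 lower in U-2932, with a median of 0.62 log2 units (39.8% of tested genes higher and 30.6% lower). In OCI-LY19, 2 stood higher and 65 lower, with a median of −0.42 (32.7% higher and 25.3% lower). The 0 h libraries enter both this comparison and the 8 h change, so the order of the lines in the 2 comparisons is not independent. RPL10, on chromosome X (154398065 to 154402339, GRCh38.p14), had the smallest p: at 0 h it had 1966 and 1796 CPM in U-2932, 634 and 543 CPM in OCI-LY19, 868 and 907 CPM in OCI-LY3, and 2949 and 2758 CPM in SU-DHL-10 (adjusted p = 3.92e-25). The libraries of the 4 lines did not overlap for RPL10, with SU-DHL-10 highest. RPL35A, a 60S protein, had 1918 and 1753 CPM in U-2932 at 0 h, against 356 to 653 CPM in the 6 libraries of the other lines. RPS23, RPS19 and RPS16 were likewise highest in U-2932, by 1.88 ± 0.06, 1.49 ± 0.05 and 1.43 ± 0.05 log2 units against the mean of the other lines (SE).

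FAU, a gene that the symbol rule leaves out and that encodes RPS30 fused to a ubiquitin-like protein, moved in the members' direction in U-2932 and OCI-LY19. It fell by 1.54 ± 0.07 on the log2 scale in U-2932 and rose by 0.46 ± 0.07 in OCI-LY19 (SE). By spike-ins FAU stood at −0.81 in U-2932. Of the 7 tested paralogues, 5 fell in U-2932 (RPL22L1, RPL26L1, RPL36AL, RPL39L and RPS27L, of which RPL22L1, RPL26L1 and RPL39L lay above 0 by spike-ins) and 4 rose in OCI-LY19. The median tested gene in U-2932 stood at 0.70 by spike-ins, above RPL22L1, RPL26L1 and RPL39L. RPL22L1, a paralogue of RPL22 that can take its place in the ribosome, had 312 and 308 CPM at 8 h, against 191 and 179 CPM at 0 h in OCI-LY19 (0.75 ± 0.07, SE; adjusted p = 1.70e-10), and 49.98 and 52.6 CPM at 8 h, against 70.3 and 69.9 CPM at 0 h in U-2932 (−0.45 ± 0.08, SE; adjusted p = 1.16e-05). Of 132 tested ribosomal protein pseudogenes, 67 fell and 11 rose in U-2932.

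Lists of genes that work with the ribosome are described by their counts and medians, and their difference from the members was not tested. Of all tested genes, 25.9% were called higher and 25.0% lower in U-2932, and 21.6% higher and 17.8% lower in OCI-LY19, where 1251 of the 2230 other abundant genes rose. In U-2932, 9 of 16 other 5′ TOP mRNAs fell and none rose, with a median log2 fold change of −0.26, against −0.85 for the ribosomal protein genes. Among them EEF1B2, an elongation factor subunit, fell by 0.63 ± 0.06 and TPT1, a growth-related protein, by 0.76 ± 0.07 on the log2 scale (SE), and by spike-ins they stood at 0.09 and −0.04. By spike-ins the median tested gene in U-2932 stood at 0.70. PABPC1, the cytoplasmic poly(A)-binding protein, had 1153 and 1234 CPM at 8 h and 1114 and 1116 CPM at 0 h in U-2932. In OCI-LY19, 14 of these 16 mRNAs rose. Of 39 ribosome assembly factors, 9 rose and 17 fell in U-2932 (median −0.07), and 29 rose and 1 fell in OCI-LY19 (median 0.39). Of 29 translation initiation factors, 11 rose and 10 fell in U-2932 (median −0.03), and 21 rose in OCI-LY19 (median 0.31).

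Across the 4 lines, 4 assembly factors of 39 rose and 1 fell, 1 RNA polymerase I gene of 14 rose and 1 fell, 3 initiation factors of 29 rose, and 2 of 15 genes of mTORC1 and S6 kinase signalling rose and 1 fell. These counts lie close to or below the 18.1% of all tested genes called in either direction, so they set none of the lists apart. TAF1A, a subunit of the RNA polymerase I factor SL1, had 11.8 and 11.6 CPM at 8 h, against 6.56 and 6.44 CPM at 0 h in OCI-LY3, and rose by 0.69 ± 0.09 across lines (SE; adjusted p = 0.000139). UBTF, the RNA polymerase I factor that binds ribosomal DNA, fell by 0.34 ± 0.10 across lines (SE; adjusted p = 0.0276) but rose by 0.22 ± 0.06 within U-2932. By spike-ins its value across lines was −0.08 (adjusted p = 0.776), and the call was also lost without each single library of OCI-LY3 or OCI-LY19 (adjusted p from 0.0543 to 0.0683) and without 0 h replicate 2 of SU-DHL-10 (adjusted p = 0.0515). EIF4G3, a scaffold of translation initiation, rose by 0.38 ± 0.06 across lines (SE; adjusted p = 0.000681). RPS6KB1, the kinase that phosphorylates RPS6, rose by 0.25 ± 0.06 (SE; adjusted p = 0.00891), and MLST8, a subunit of the mTOR complexes, fell by 0.26 ± 0.06 across lines (SE; adjusted p = 0.00843), against 0.01 by spike-ins. By spike-ins the median tested gene stood at 0.28 across lines, above UBTF and MLST8. The call of RPS6KB1 was lost by total counts (adjusted p = 0.0563). Within U-2932, 7 of the 14 RNA polymerase I genes rose and 3 fell, and 8 of the 15 signalling genes rose and 5 fell.

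**Figure D5:**
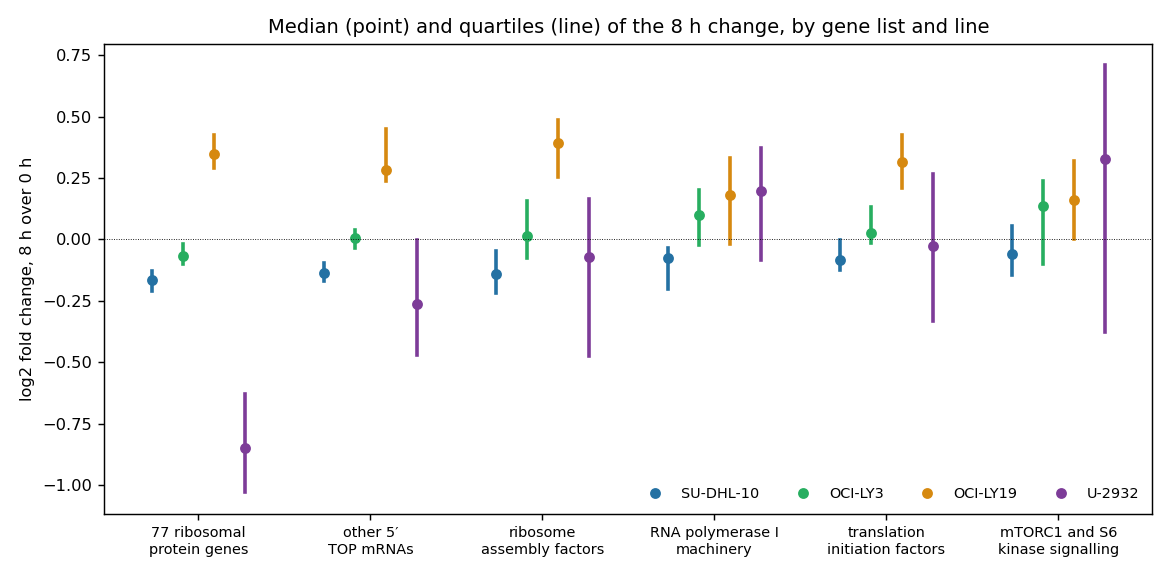
Median (point) and quartiles (line) of the log2 fold change (8 h over 0 h, TMM scaling) for the 77 ribosomal protein genes and 5 lists of genes that work with the ribosome, by line. In U-2932 the quartiles of the ribosomal protein genes lie below those of every other list drawn, and in OCI-LY19 the medians of all 6 lists lie above 0.

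The tract at the start of the transcript and the size of the change were set side by side without a test. In U-2932 the 42 genes with the tract had a median log2 fold change of −0.88 and the 20 without it −0.72. In OCI-LY19 the medians were 0.36 with the tract and 0.33 without it, in SU-DHL-10 −0.17 and −0.16, and in OCI-LY3 −0.07 and −0.03. RPS29 and RPL6, shown above without a tract, had −1.84 and −0.41 in U-2932, and RPLP2 and RPLP0, both with one, had −1.54 and −0.54. Over the 77 genes the change in U-2932 had a Spearman rho of 0.03 with the level at 0 h and of 0.15 with the genomic span of the gene. Over the 62 with a promoter sequence rho was −0.16 with the length of the pyrimidine run and −0.18 with the percent GC of the promoter. In the other lines these rhos lay between −0.22 (genomic span, OCI-LY19) and 0.28 (level at 0 h, OCI-LY3). None of these measures ordered the members closely. Among the B cell markers 6 of 7 fell and 1 rose in U-2932, with a summed level of 2920 to 2955 CPM at 8 h and 3919 to 4074 CPM at 0 h, and the part of such broader changes in the members' values was not tested.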

How the data were processed

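RNA was sequenced from 4 lymphoma cell lines 8 h after TAK-981 and at 0 h, 2 libraries each. Per the labels' protocols, poly(A) RNA was selected and PCR duplicates were removed. The submitters' processing notes name Trimmomatic, Bowtie2 and DESeq2 and the builds GRCh38 and hg19, without saying which belong to this table; the counting tool and its handling of reads that match several genes were not stated. The deposited table held raw counts per Ensembl gene and for 92 spike-in RNAs. The other 8 samples, of chromatin accessibility, were not used.

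Ensembl IDs were matched to symbols through reference tables (58207 of 58676 IDs). Genes were kept by edgeR's filterByExpr over the 8 groups (17327 genes), scaled by TMM and tested with edgeR 4.0.16 (R 4.3.3; glmQLFit and glmQLFTest) with Benjamini-Hochberg adjustment over all tested genes at 0.05: within lines and between lines with 1 mean per group (8 residual degrees of freedom), across lines with terms for line and time (11). The median biological coefficient of variation was 8.54%. Relative to the pool, library sizes were the summed counts of the 77 genes, without TMM. CPM are TMM-scaled, except those of summed marker lists, which use total counts. The procedure was tested on simulated data. Alternatives were other scalings (DESeq2's size-factor method RLE, total counts, spike-ins), other filters, DESeq2 1.42.0, a replicate block, fewer lines and fewer libraries. Motif letters and the start tract were searched in RefSeq sequences.

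The genes named are, in each comparison, the 3 called members with the highest and the 3 with the lowest fold change, the 5 with the smallest p for differences between lines or at 0 h, the highest and lowest against the pool, 12 members of known role, genes with a ribosomal protein outside the symbol rule, paralogues, and up to 3 genes of each other list with the smallest p across lines. Genes named beyond that rule (the members that were not called, and those listed under 1 scaling or against the pool) were chosen after their values were seen. The values of 2 genes that the rule names are not reported here. The members and lists were chosen with earlier results of these data known.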

Additional observations from a re-analysis of the deposited data

Results flagged for a closer look

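The 8 h change of 75 of the 77 ribosomal protein genes differed between the 4 lines in edgeR's quasi-likelihood test of the difference, against 53.5% of all tested genes. In U-2932 the change lay below the mean change of the other lines for 75 genes (20.1% of all tested genes called lower). In OCI-LY19 it lay above that mean for 75 (17.8% called higher). In OCI-LY3 it lay above for 18 (6.35% called higher), though no member was called higher within that line. In SU-DHL-10 it lay above for 3 and below for 1, though all 77 fold changes within that line lay below 0. Both counts were fewer by share than the 8.25% of all tested genes called higher and 12.1% called lower. The smallest adjusted p-values of the difference were 9.75e-18 for RPLP2, 2.22e-16 for RPS21, 7.1e-16 for RPL37, 9.23e-16 for RPL38 and 4.9e-15 for RPL35. By spike-in scaling the count that differed was 31 of 77, without a share of all tested genes beside it. The drug, 8 h of culture and the high ribosomal protein share of the 0 h libraries of U-2932 enter this difference together and cannot be told apart.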

How the results depend on the processing

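With 2 libraries per group, no vehicle at 8 h and spike-ins of unknown dosing, the values are relative to other mRNAs, and the cause of the shifts named here was not tested. RLE scaling moved the median of the 77 genes by at most 0.0151 log2 units. Shares of all tested genes called under the alternatives are not given, so the counts below have no background beside them. Under spike-in scaling the counts that rose or fell were 1 rose and 17 fell in U-2932, 29 rose in OCI-LY19, 2 rose and 0 fell in OCI-LY3, and 0 fell in SU-DHL-10, and 31 differed between lines. Under it the median of the 77 genes turned to 0.19 in OCI-LY3 and 0.10 across lines, where the medians over all tested genes were 0.20 and 0.28. In U-2932 the median over all tested genes was 0.70 on this scale. Within U-2932, RPL22 turned to 0.231, RPL3 to 0.17, RPL5 to 0.24, RPLP0 to 0.19, RPS6 to 0.12, RPSA to 0.11, RPL6 to 0.317, RPL7 to 0.302, RPL26 to 0.337, RPL22L1 to 0.28, RPL26L1 to 0.0735, RPL39L to 0.0253 and RPL3L to 0.17. Within OCI-LY3, RPL37 turned to 0.0607, RPL38 to 0.0558 and RPS3A to 0.0048, and across lines EEF1B2 turned to 0.11, MLST8 to 0.0107, RRS1 to 0.0372 and TPT1 to 0.0747.

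Under total counts without TMM, 26 members rose and 1 fell in OCI-LY19, 10 fell in OCI-LY3, 8 fell in SU-DHL-10, and 6 fell across lines; within OCI-LY19, RPL22 turned to −0.0848, RPLP0 to −0.0058, RPS6 to −0.0324, RPSA to −0.0099, RPL12 to −0.0336, RPS3A to −0.0113 and RPS27L to −0.15. RLE scaling gave 1 that rose in OCI-LY3. Without a filter on low counts 19 fell across lines, 8 in OCI-LY3 and 39 in SU-DHL-10, and against the pool 2 fell in OCI-LY19, 0 rose in OCI-LY3 and 2 fell in SU-DHL-10. The stricter filter and DESeq2 each gave 1 that fell across lines. Fits on the libraries of 1 line alone gave 1 that fell in OCI-LY19, 2 that rose and 8 that fell in OCI-LY3, and 8 that fell in SU-DHL-10. Across lines 7 fell in the lines with a low spike-in share alone (chosen after seeing the data), 32 without OCI-LY19, 1 without U-2932 (where the median turned to 0.0404) and 70 in the mean of the 4 line contrasts. A pool without its 10 highest members gave 4 that fell in OCI-LY19. The ratio of the ribosomal protein share, 8 h over 0 h, was 0.608 in U-2932, 1.08 in OCI-LY19, 0.941 in OCI-LY3 and 0.927 in SU-DHL-10; against spike-in counts it was 0.933, 1.26, 1.15 and 0.980 in the same order of lines.

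Same-numbered libraries did not deviate together (correlations of −0.01, 0.00, −0.05 and −0.16 in the 4 lines), so no pairing by number was seen. These correlations cannot show whether same-numbered libraries share a culture, which no label states. With a replicate block 1 member rose and 7 fell in OCI-LY3, and against the pool 1 fell in OCI-LY3 and 0 across lines. With the numbers of U-2932 crossed, chosen after seeing the data, the replicate block gave 7 that fell in OCI-LY3.

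Leaving out 1 library at a time, the members that fell numbered 73 to 75 in U-2932, 2 to 9 in OCI-LY3, 4 to 37 in SU-DHL-10 and 0 to 1 across lines, and those that rose 0 to 1 in OCI-LY3 and 66 to 71 in OCI-LY19. Between lines 74 to 75 differed, and 75 to 77 at 0 h. Against the pool 18 to 24 rose and 19 to 29 fell in U-2932, 0 to 18 rose and 1 to 7 fell in OCI-LY19, 0 to 2 rose and 0 to 3 fell in OCI-LY3, 0 to 2 fell in SU-DHL-10, and 0 to 1 fell across lines. The share ratio lay between 0.586 and 0.631 in U-2932, 1.05 and 1.11 in OCI-LY19, 0.922 and 0.960 in OCI-LY3, and 0.905 and 0.950 in SU-DHL-10. RPL3L, with few counts, lay between −2.21 and 0.265 in U-2932 and −0.860 and 0.321 in OCI-LY19, and RPS27L between −0.111 and 0.339 in OCI-LY19.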
